A study of Mus musculus with 2 samples.

Results

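The T-cell receptor beta locus was examined in DNase I hypersensitivity maps of mouse thymus. The locus was taken as chr6:40841229-41608452 on mm10, which runs from 50 kb before the Trbv1 segment to 50 kb after the Trbv31 segment and spans 767.2 kb. Every peak, footprint and base of significant cutting deposited for that interval was kept. These were 80 of 127552 peaks, 230 of 363775 footprints and 27669 of 44844616 bases with a false discovery rate below 0.05 in replicate 1. In replicate 2 they were 47 of 67270 peaks, 146 of 203939 footprints and 14601 of 23178581 such bases. Each library was made from the thymus of its own animal, a female of the B6CASTF1/J cross (C57BL/6J by CAST) at 25 days of age. The 2 animals formed 1 group, so no treatment or genotype was contrasted, and all values are given for both. Whole thymus was used, so fewer accessible cells and less cutting per cell cannot be told apart.

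The locus encodes the beta chain of the alpha-beta T-cell receptor in separate V (variable), D (diversity), J (joining) and C (constant) segments. In immature thymocytes the RAG recombinase joins D to J and then V to DJ, cutting at recombination signals made of a heptamer, a spacer and a nonamer. An enhancer between Trbc2 and Trbv31 is needed for this process in mice, though the annotation used here does not mark it, and promoters lie before the D segments and before each V segment. Trbv31 lies beyond the enhancer in the opposite orientation and is joined by inversion, while stretches of trypsinogen genes, which are known for expression in the exocrine pancreas, interrupt the locus. Other joins delete the DNA between the joined segments. Within the DNA that such joins can remove, fewer copies of a stretch and less cutting per copy therefore cannot be told apart.

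GENCODE M21 annotates 53 segments in the interval, which are 35 V, 2 D, 14 J and 2 C. Of the V segments 22 are classed as genes and 13 as pseudogenes. DNase I cuts accessible DNA, and a footprint is a short run inside such DNA that is cut less than its surroundings. The sequences of the 6 sites on which the account turns are shown here from the mm10 reference, 5′ to 3′, with capitals for bases inside footprints of both libraries. They are the densest peak of the enhancer side (chr6:41554381-41554640, plus strand), the peaks before Trbd2 (chr6:41541821-41542100, plus) and Trbd1 (chr6:41532921-41533160, plus), and the peak at the Trbv31 start (chr6:41558381-41558600, minus). The remaining 2 are the densest peaks of the V array, before Trbv12-2 (chr6:41118301-41118480, plus) and before Trbv12-1 (chr6:41112981-41113180, plus). The animals carry CAST alleles too, whose bases may differ from the reference printed.
Enhancer side: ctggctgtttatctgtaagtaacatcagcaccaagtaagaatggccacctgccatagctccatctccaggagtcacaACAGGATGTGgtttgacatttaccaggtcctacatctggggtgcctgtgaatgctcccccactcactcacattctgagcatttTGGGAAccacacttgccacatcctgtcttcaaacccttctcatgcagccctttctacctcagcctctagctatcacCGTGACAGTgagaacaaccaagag
Before Trbd2: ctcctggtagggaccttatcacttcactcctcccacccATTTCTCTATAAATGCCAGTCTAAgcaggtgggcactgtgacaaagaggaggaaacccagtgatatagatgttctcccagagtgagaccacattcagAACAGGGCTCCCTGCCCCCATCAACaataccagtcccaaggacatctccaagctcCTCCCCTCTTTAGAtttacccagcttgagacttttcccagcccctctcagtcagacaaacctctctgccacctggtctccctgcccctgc
Before Trbd1: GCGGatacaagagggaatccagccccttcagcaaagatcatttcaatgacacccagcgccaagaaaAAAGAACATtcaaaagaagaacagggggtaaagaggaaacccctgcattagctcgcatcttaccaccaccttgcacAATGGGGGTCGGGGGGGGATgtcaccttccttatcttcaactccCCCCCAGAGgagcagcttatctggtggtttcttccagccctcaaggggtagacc
Trbv31 start: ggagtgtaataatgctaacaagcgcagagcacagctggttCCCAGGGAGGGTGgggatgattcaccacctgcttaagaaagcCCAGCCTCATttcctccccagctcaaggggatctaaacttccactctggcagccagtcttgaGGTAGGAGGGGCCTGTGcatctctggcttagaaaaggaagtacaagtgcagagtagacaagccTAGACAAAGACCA
Before Trbv12-2: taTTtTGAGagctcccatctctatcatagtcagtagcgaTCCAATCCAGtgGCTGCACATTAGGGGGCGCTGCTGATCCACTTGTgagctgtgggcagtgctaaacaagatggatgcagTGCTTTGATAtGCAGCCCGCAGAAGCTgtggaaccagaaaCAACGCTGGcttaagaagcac
Before Trbv12-1: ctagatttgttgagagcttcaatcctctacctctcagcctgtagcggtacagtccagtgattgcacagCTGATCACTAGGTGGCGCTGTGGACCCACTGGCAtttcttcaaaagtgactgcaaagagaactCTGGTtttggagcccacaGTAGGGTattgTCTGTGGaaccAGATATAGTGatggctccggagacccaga

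The D segments with their recombination signals are shown because the D peaks end close to them. In replicate 2 the Trbd1 peak, which ends at chr6:41533180, runs into the upstream nonamer. Capitals mark the nonamers and heptamers on either side of the D segment, on the plus strand of mm10 at chr6:41533173-41533251 and chr6:41542135-41542215. The spacers are 12 bases long on the upstream side and 23 bases long on the downstream side of both. The D segments themselves are 12 bp in Trbd1 and 14 bp in Trbd2.
Trbd1: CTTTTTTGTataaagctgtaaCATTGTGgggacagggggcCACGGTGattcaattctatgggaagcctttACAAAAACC
Trbd2: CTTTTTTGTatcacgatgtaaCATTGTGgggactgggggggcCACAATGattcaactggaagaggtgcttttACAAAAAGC

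Accessible DNA was denser along the locus than along the genome in both animals. The locus held 1.04 peaks per 10 kb in replicate 1 and 0.613 in replicate 2, against 0.482 and 0.254 over the genome. Bases with a false discovery rate below 0.05 made up 3.61% of the locus in replicate 1 and 1.90% in replicate 2, against 1.69% and 0.875% of the genome. Footprints numbered 2.998 and 1.903 per 10 kb of locus, against 1.37 and 0.770 of the genome. The median density per peak, the authors' own signal on a scale that is not stated, was 1.00 and 0.846 in the locus, against 0.825 and 0.930 in the genome. The locus thus held more peaks per length in both animals, while the median density was above the genome's in replicate 1 and below it in replicate 2.

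The maps of the animals overlapped closely at the dense sites. Of the 80 replicate 1 peaks, 46 overlapped a replicate 2 peak, or 57.5% (exact binomial 95% interval 45.9 to 68.5), against 46.9% of all peaks. Of the 47 replicate 2 peaks, 46 overlapped a replicate 1 peak, or 97.9% (88.7 to 99.9), against 88.8%. Both intervals include the share of the genome. The 46 overlapping peaks of replicate 1 had a median density of 2.03, and the 34 without a partner had a median of 0.608 and a highest value of 1.66. The lone replicate 2 peak had a density of 0.246. Over the 46 pairs the densities had a Spearman correlation of 0.74 and a Pearson correlation of log10 values of 0.80, as a description of points that share their libraries. Of the footprints 41.3% in replicate 1 and 67.1% in replicate 2 overlapped a footprint of the other animal, against 35.7% and 67.9% over the genome. Sharing of footprints was thus above the genome's in replicate 1 and near it in replicate 2.

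**Figure D1:**
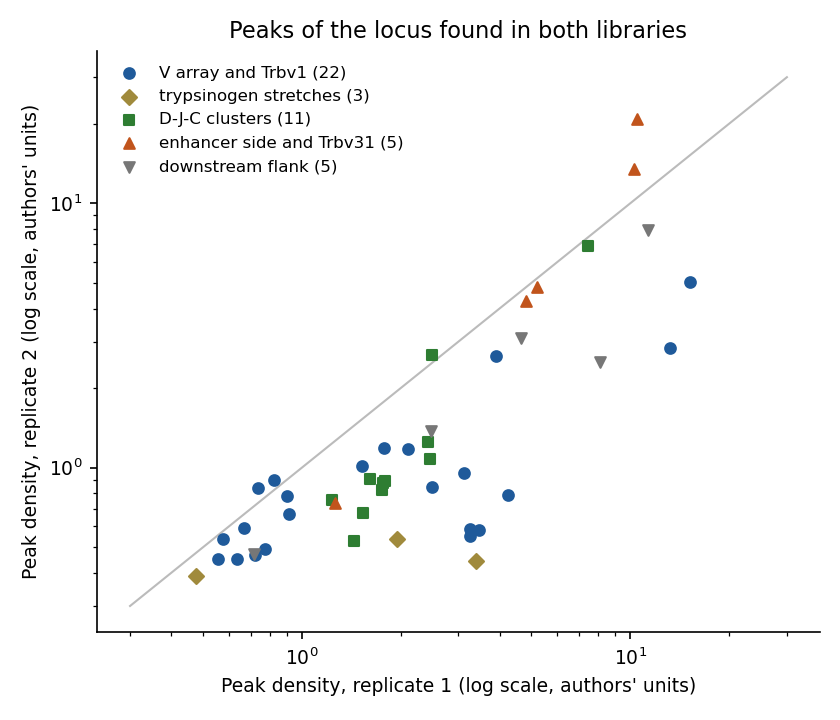
Peak density of the 46 overlapping pairs of locus peaks in replicate 1 (horizontal) and replicate 2 (vertical), both on log axes in the authors' units, with colour and shape for the stretch and a grey line where the values are equal. The enhancer-side peak is the densest pair of replicate 2 at 20.9, and the Trbv12-2 pair is the densest of replicate 1 at 15.2.

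Peaks were gathered at the V segments and in the D-J-C and enhancer end, with long empty trypsinogen stretches between them. The 27.3 kb from 1 kb before Trbd1 to 1 kb beyond Trbv31 make up 3.55% of the interval. They held 28 of 80 peaks in replicate 1 (35%) and 16 of 47 in replicate 2 (34%). The 237 kb V array from Trbv2 to Trbv30 held 36 of 80 peaks (45%) and 21 of 47 (44.7%). The trypsinogen stretches cover 52.5% of the interval and held 9 of 80 peaks (11.2%) and 4 of 47 (8.51%). The shares of the animals in each of these stretches lay within 3 percentage points of each other. No peak, footprint or significant base was listed in either animal for the 49 kb flank before Trbv1.

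**Figure D2:**
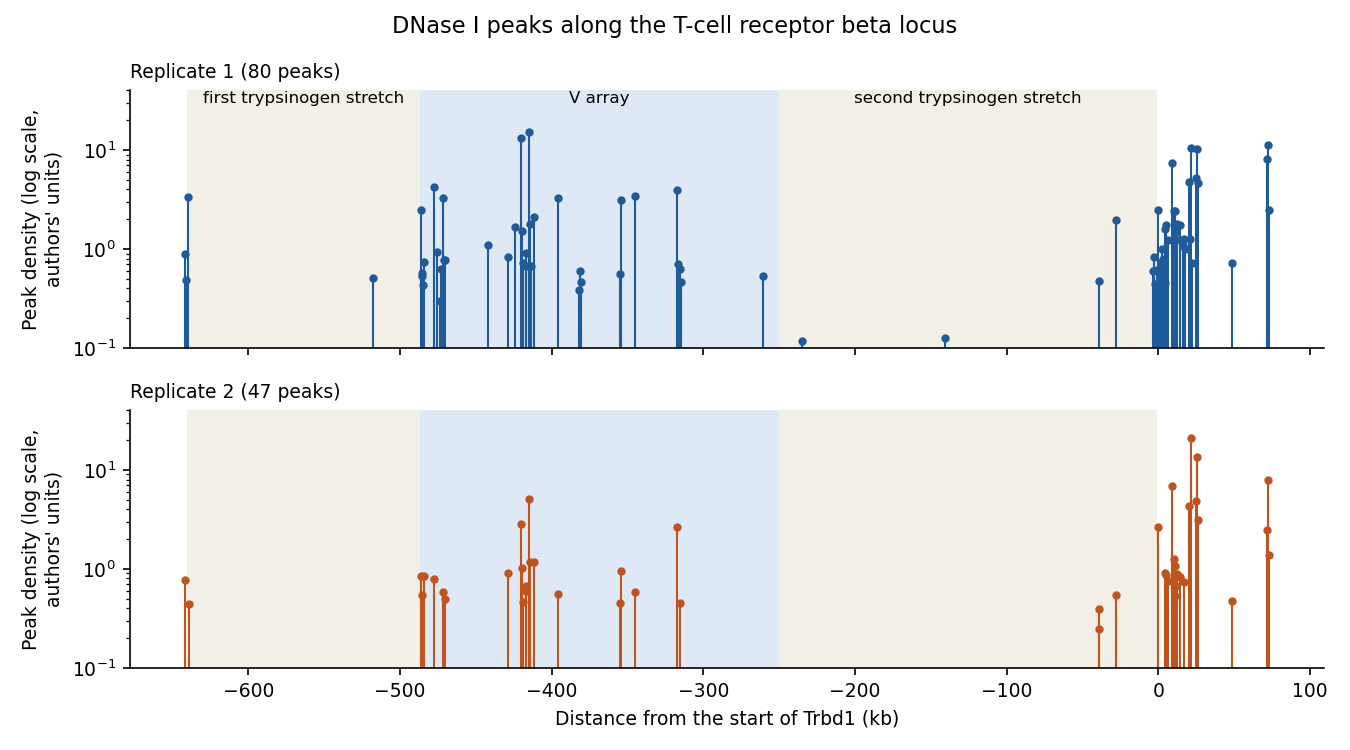
Density of every locus peak (log axis, authors' units) against distance from the start of Trbd1 in kb, with replicate 1 above and replicate 2 below, and with the trypsinogen stretches and the V array shaded. Peaks cluster in the V array and at the right-hand end, and the trypsinogen stretches hold 9 peaks in replicate 1 and 4 in replicate 2.

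V promoters are short elements just before the leader exon of each V gene. A peak within 1 kb of the segment start was found for 15 of 22 V genes in replicate 1 (68.2%) and 12 of 22 in replicate 2 (54.5%). Over all annotated gene starts the shares were 35.1% and 29.5%, and over protein-coding starts 61.7% and 55.1%. The V genes were thus above the share of all starts and near that of protein-coding starts. Among V pseudogenes the counts were 2 of 13 (15.4%) and 1 of 13 (7.69%). Neighbouring windows overlap at some places, so Trbv2 and Trbv3 count some peaks in common.

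The same 12 V genes had a start peak in both animals, namely Trbv1, Trbv2, Trbv3, Trbv5, Trbv12-1, Trbv13-1, Trbv12-2, Trbv13-2, Trbv19, Trbv20, Trbv23 and Trbv31. Some of these peaks did not lie at the start itself. For Trbv13-2 the peak counted lay at the 3′ end of the segment in both animals. In replicate 2 Trbv3 was counted by its 3′ peak and by the Trbv2 peak. Trbv5 was counted in replicate 2 by peaks centred 1035 bp before and 516 bp after its start. Trbv4, Trbv16 and Trbv29 had a start peak in replicate 1 alone. Trbv13-3, Trbv14, Trbv15, Trbv17, Trbv21, Trbv26 and Trbv30 had none in either animal. Between the Trbv23 and Trbv24 pair and Trbd1, Trbv29 in replicate 1 was the sole V segment with a start peak. Of the pseudogenes, Trbv24 had a start peak in both animals and Trbv10 in replicate 1.

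**Figure D3:**
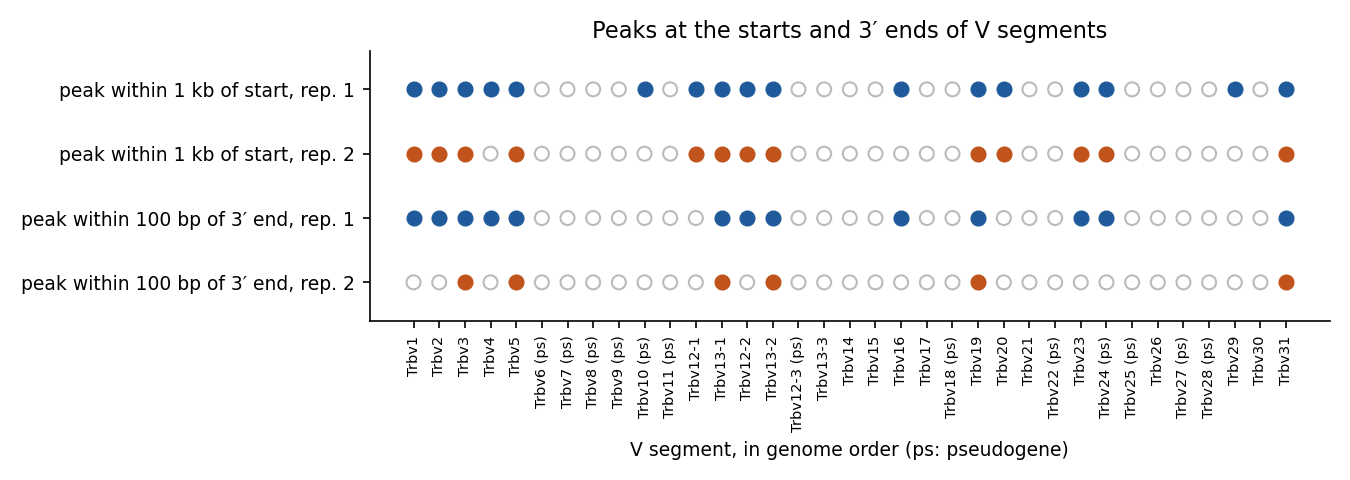
Presence (filled) or absence (open) of a peak within 1 kb of the start and within 100 bp of the 3′ end of each V segment, by replicate, with segments in genome order and pseudogenes marked ps. Of the 22 V genes 12 have a start peak in both animals, and of the 13 pseudogenes 1 does.

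The densest V array peaks lay before Trbv12-2 and Trbv12-1. The peak before Trbv12-2 had a density of 15.2 in replicate 1 and 5.04 in replicate 2, and its middle lay 471 and 461 bp before the segment. The peak before Trbv12-1 had densities of 13.2 and 2.83, with its middle 480 and 470 bp before the segment. They ranked first and second in the V array in both animals, and first and second in the whole locus in replicate 1. In replicate 2 the enhancer-side peak was denser than both.

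These neighbouring sites share a sequence feature. A core of the CTCF recognition sequence, AGG followed by any base and GGCGCT, occurs as AGGGGGCGCT at chr6:41118362-41118371 and as AGGTGGCGCT at chr6:41113058-41113067. CTCF is an architectural protein of chromatin loops. At both sites all 10 bases lay inside footprints of both animals, and they stand in capitals in the sequences above. This motif was chosen after the sequences were read. Searched on both strands in the 200 bp around each peak's middle, it occurred in 2 of 80 locus peaks and in 1.75% of all peaks in replicate 1, and in 2 of 47 and 1.51% in replicate 2. Footprints of both animals covered 85 of 180 bases before Trbv12-2 and 63 of 200 before Trbv12-1. Other searched words lay in them too. All 6 bases of CTTTGA at chr6:41118422-41118427, before Trbv12-2, were inside footprints of both animals. Before Trbv12-1, 3 of 6 bases of CAGCTG at chr6:41113046-41113051 were.

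Other V sites were less dense. The peak over the Trbv23 start, at chr6:41216001-41216160, had densities of 3.91 in replicate 1 and 2.65 in replicate 2 and was the third in the V array by mean density. The peak before Trbv20 had 3.45 and 0.582, with its middle 103 bp before the segment in replicate 1. The peak before Trbv5 had 3.26 and 0.588, with its middle 1042 bp before the segment. Trbv2 had 2.49 and 0.846 in a peak centred 570 bp before it. At Trbv1, which stands alone 5′ of the trypsinogen genes, the start peak had 0.899 and 0.780. A further Trbv1 peak, at chr6:40891601-40892020, had 0.481 in replicate 1 alone. The densest start peaks of Trbv3, Trbv13-1, Trbv16, Trbv4, Trbv29 and the pseudogene Trbv24 were all below 1 in every animal that had them. Trbv10, a pseudogene, had 1.10 in replicate 1. In replicate 1 the Trbv12-2 and Trbv12-1 peaks thus stood well above the other peaks of the V array, while in replicate 2 the Trbv12-1 and Trbv23 peaks were close, at 2.83 and 2.65.

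Several V peaks lay over the 3′ end of the segment, where the recombination signal sits. A peak within 100 bp of the 3′ end was found for 12 of 22 V genes in replicate 1 (54.5%) and 6 of 22 in replicate 2 (27.3%), against 3.44% and 1.99% of all annotated gene ends. The 6 in both animals were Trbv3, Trbv5, Trbv13-1, Trbv13-2, Trbv19 and Trbv31. Among pseudogenes the count was 1 of 13 in replicate 1 and 0 of 13 in replicate 2. At Trbv13-2 the densest peak within 1 kb was this 3′ peak, with densities of 2.11 and 1.18 and its middle 434 and 444 bp after the segment start. At Trbv19 it was also the 3′ peak, at 3.11 and 0.954. The 200 bp around the middle of that Trbv19 peak hold the CTCF consensus as well as the heptamer CACAGTG. The consensus occurred in 3.75% of locus peaks and 5.47% of all peaks in replicate 1, and in 6.38% and 4.25% in replicate 2. A V segment is short, so a peak at its 3′ end also falls within 1 kb of its start and enters both counts. For the same reason the share of all annotated gene ends is no like background.

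The bases of the recombination signal itself were read in the same way. The first 7 bases after a V segment were fully listed below a false discovery rate of 0.05 for 12 of 22 V genes in replicate 1 and 6 of 22 in replicate 2. Over all annotated genes the 7 bases after the end were fully listed in 3.18% and 1.71%. Annotated genes differ in length, and V segments are short with ends near their starts, so these shares are no like background. For pseudogenes the counts were 1 of 13 and 0 of 13. In 21 of 22 V genes those bases begin with CAC, as heptamers do. The exception, Trbv3, has GCCTTGA there and is among the V genes counted in both animals. The V gene bodies had a median of 23.7% and 0.106% of bases listed, against 0% and 0% for the pseudogenes. At least 1 base was listed in 15 and 11 of 22 V genes, and in 1 and 1 of 13 pseudogenes. Over all annotated genes, whose bodies differ in length, the shares with a listed base were 41.9% and 35.2%.

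The trypsinogen stretches were nearly empty. The first, between Trbv1 and Trbv2 and 153.5 kb long, had 2 peaks in replicate 1 and 1 in replicate 2, with 0.429% and 0.136% of bases listed. Its peak at chr6:40893641-40893840, which lies 2511 bp after the Trbv1 start, had densities of 3.39 and 0.444 and holds the CTCF consensus. Its other peak, at chr6:41015181-41015360, had 0.508 in replicate 1 alone. The second, between the V array and Trbd1 and 249.2 kb long, had 7 and 3 peaks (5.00 ± 2.83, SD, n = 2) with 0.622% and 0.217% of bases listed. These shares are below those of the genome, 1.69% and 0.875%. No peak overlapping between the animals was found in 152.8 kb of the first stretch or across 275.8 kb from Trbv24 into the second stretch.

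Much of this DNA is repeated, which limits what short reads can show. In the first and second stretches 62.4% and 59.7% of 31-base words occur once in mm10, against 85.3% in the V array. Of 14 protein-coding genes there, 13 had no listed base in replicate 1 and 13 had none in replicate 2. Gm5771 was the sole gene with a start peak, at a density of 0.127 in replicate 1. At protein-coding starts of the whole genome a peak was present in 61.7% (replicate 1) and 55.1% (replicate 2). Prss58, Gm4744, 2210010C04Rik and Prss2 have over 95% single-copy words, and none of these 4 had a listed base in either animal. Genome-wide, 41.9% (replicate 1) and 35.2% (replicate 2) of annotated genes, which differ in length, held any listed base. Lacking one was thus common, and 4 genes are too few to be set apart from those shares. Among 6 markers of pancreatic acinar cells 1, Cela1, had a start peak, in both animals. The densest peak of the second stretch, at chr6:41505481-41505640, had 1.95 and 0.540. The other shared peak there, at chr6:41494001-41494220, had 0.476 and 0.390. Toward its end, 3 peaks of replicate 1 alone lay 2381 to 3388 bp before Trbd1, with densities of 0.444 to 0.830. The densest of them was at chr6:41530101-41530268.

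**Figure D4:**
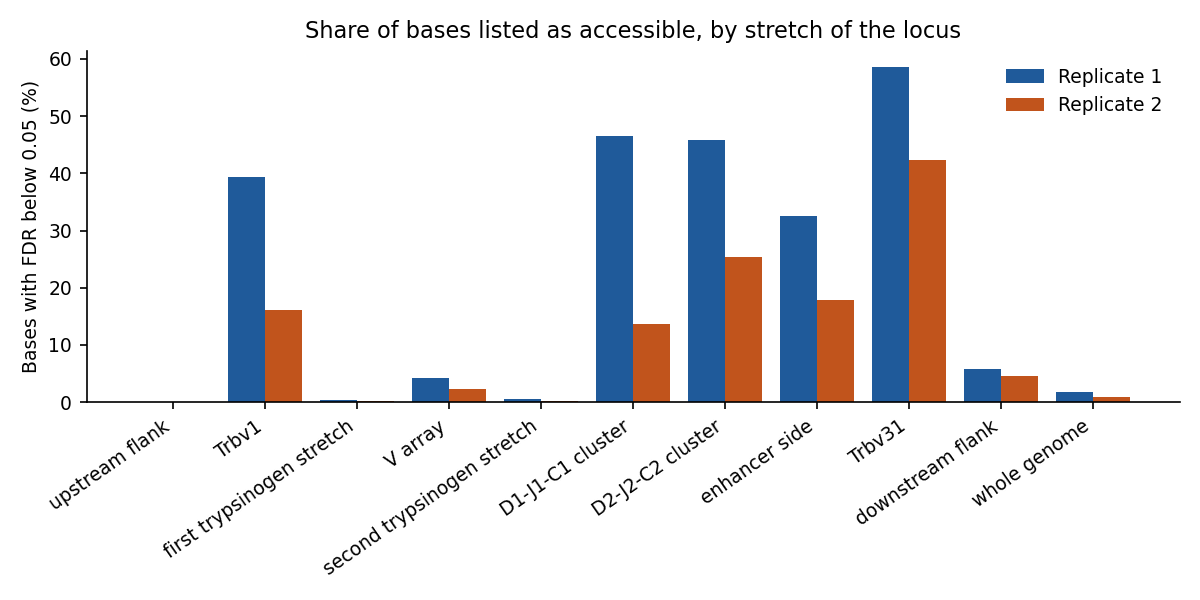
Bars give the percent of bases with a false discovery rate below 0.05 in each stretch of the locus and in the whole genome, per replicate. Trbv31 stands highest in both animals at 58.5% and 42.3%, and the trypsinogen stretches lie below the genome's 1.69% and 0.875%.

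The D-J-C clusters are where joining begins and where RAG proteins gather in mouse thymocytes. The D1-J1-C1 cluster, chr6:41532201-41539881, held 11 peaks in replicate 1 and 4 in replicate 2 (7.50 ± 4.95, SD, n = 2), and all 4 overlapped between the animals. The D2-J2-C2 cluster, chr6:41539882-41548352, held 8 and 7 (7.50 ± 0.707), of which 7 overlapped. Bases listed made up 46.5% and 13.6% of the first cluster and 45.9% and 25.3% of the second. Footprints numbered 27 and 11 in the first cluster and 38 and 23 in the second. By these counts the animals differed more in the first cluster than in the second. With replicate 1 reduced to as many peaks as replicate 2 has, the mean number of peaks fell to 5 in the first cluster. It stayed at 7.5 in the second.

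Each D segment had a peak just before it in both animals. The Trbd2 peak, chr6:41541821-41542100 in replicate 1, had densities of 7.46 and 6.89 and was the densest peak of either cluster. The Trbd1 peak, chr6:41532801-41533160 in replicate 1 and chr6:41532921-41533180 in replicate 2, had 2.49 and 2.68. Within a library the Trbd2 peak was 3 times as dense as the Trbd1 peak in replicate 1 and 2.57 times in replicate 2. The middles of the Trbd1 peaks lay 221 and 151 bp before the segment, and those of the Trbd2 peaks 203 and 213 bp before it. All bases of both D segments were listed below 0.05 in both animals.

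The footprints at the D peaks were largely shared. Before Trbd2, footprints covered 73 of 280 bases in replicate 1 and 83 in replicate 2, of which 63 were in both. The first capital run of that sequence holds TATAAA at chr6:41541866-41541871, the letters of a TATA box, at which the general transcription machinery is placed, and all 6 bases were inside footprints of both animals. TATAAA occurred in 10% of locus peaks and 5.67% of all peaks in replicate 1, and in 12.8% and 4.17% in replicate 2, and was searched after the sequence was read. Before Trbd1, footprints covered 46 and 62 of 240 bases, 42 in both. AGATAA, a core bound by GATA factors such as Gata3, occurs at 2 places on the minus strand of the Trbd1 sequence, and neither lay in footprints of both animals. AGATAA occurred in 7.5% of locus peaks and 6.54% of all peaks in replicate 1, and in 12.8% and 5.77% in replicate 2.

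The J segments differed between the animals more than the D segments did. The stretch from Trbj1-1 to Trbj1-7, chr6:41533864-41535687, had 69% of bases listed and 3 peaks in replicate 1, and 0% and 0 peaks in replicate 2. The 3 peaks had densities of 0.587, 0.714 and 1.01, and are themselves among the replicate 1 peaks without a partner. All 31-base words of the stretch are single-copy. The J heptamer was fully listed for 5 of 7 segments in replicate 1, from Trbj1-3 to Trbj1-7, and for 0 of 7 in replicate 2. Over all annotated genes the 7 bases before the start were fully listed in 27% and 22.9%. In the stretch of the second cluster, chr6:41542754-41543856, 46% and 36.7% of bases were listed. There the heptamer was listed for 4 of 7 segments in replicate 1 and 2 of 7 in replicate 2. At least 1 base was listed in the same 4 of 7 J2 segments in both animals, Trbj2-4 to Trbj2-7, and Trbj2-1 to Trbj2-3 had none. Of the J1 segments 5 of 7 had listed bases in replicate 1 and 0 of 7 in replicate 2. Whether the lower number of peaks in replicate 2 accounts for this was not tested.

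**Figure D5:**
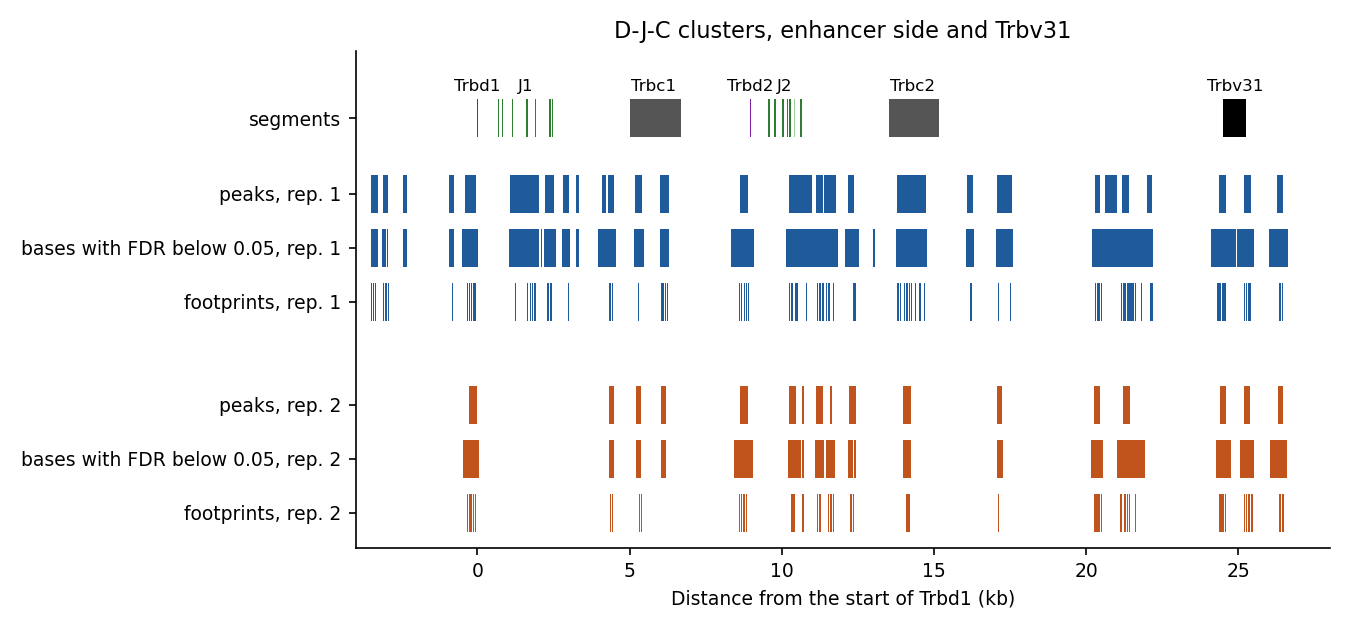
Peaks, bases with a false discovery rate below 0.05 and footprints of each replicate from just before Trbd1 to beyond Trbv31, against distance from the start of Trbd1 in kb, with the segments at their annotated positions; footprints are drawn wider than their true width. Replicate 1 has 3 peaks over the J1 segments where replicate 2 has 0, and both have peaks before Trbd1, before Trbd2, on the enhancer side and at Trbv31.

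Heptamers beside the D segments were listed in nearly every case. At Trbd2 both heptamers were fully listed in both animals. At Trbd1 the upstream heptamer was listed in both, and the downstream heptamer in replicate 2 alone. Between Trbd1 and the J1 segments 0.922% and 6.30% of bases were listed, and between Trbd2 and the J2 segments 15.1% and 13.9%. In replicate 1 these shares were below those over the J segments of both clusters, and in replicate 2 that held for the second cluster alone.

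Beyond the J segments a larger share of the second cluster was listed in replicate 1 than in replicate 2. From the J2 segments to Trbc2, 57.4% and 30.8% of bases were listed, with 4 peaks in each animal. The longest listed run of the locus in replicate 1 was 1700 bp, chr6:41543350-41545049, over the last J2 segments and the DNA after them. The peaks there, from chr6:41543421 to chr6:41545560, had densities of 1.44 to 2.45 in replicate 1 and 0.528 to 1.25 in replicate 2. From the J1 segments to Trbc1 the shares were 40.5% and 7.08%, with 5 peaks and 1 peak. The peak present in both, at chr6:41537501-41537680, had 1.61 and 0.906. The others had 0.455 to 0.793 in replicate 1, apart from one that begins inside the J1 stretch.

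The constant segments, which encode the part of the receptor chain near and in the membrane, were accessible too. Over Trbc1 36.8% and 20.7% of bases were listed, with peaks of 1.76 and 0.876 and of 1.23 and 0.756. Over Trbc2 62.4% and 14.7% were listed, with a peak of 1.76 and 0.822 and a further peak of 1.23 in replicate 1. Trbc1 and Trbc2 are alike in part of their sequence. Single-copy 31-base words make up 80.6% of Trbc1 and 80.2% of Trbc2, and 16.8% of the first Trbc1 peak. Reads at that peak may have come from either gene.

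The enhancer side, chr6:41548353-41556690, held the densest site of the locus in replicate 2. It had 7 peaks in replicate 1 and 3 in replicate 2 (5.00 ± 2.83, SD, n = 2), and 32.5% and 17.9% of its bases were listed. The peak at chr6:41554381-41554640 had densities of 10.5 in replicate 1 and 20.9 in replicate 2. It ranked 8066 of 127552 and 977 of 67270 peaks of the whole genome. In replicate 1 it was the fourth in the locus, after the Trbv12-2, Trbv12-1 and Ephb6 peaks. Within a library it was 1.41 times as dense as the Trbd2 peak in replicate 1 and 3.03 times in replicate 2. The longest listed run of the locus in replicate 2, 919 bp, lies over it, and the run there in replicate 1 was 1377 bp.

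The sequence of this site holds the letters AGGATGTGG at 2 places, chr6:41554460-41554468 on the plus strand and chr6:41554556-41554564 on the minus strand. These letters join a core bound by ETS factors to one bound by RUNX factors, families known to act on T-cell enhancers, and the plus-strand copy overlaps a match to the searched RUNX letters TGTGGT. At the plus-strand copy 8 of 9 bases lay inside footprints of both animals, and the minus-strand copy touched a footprint in replicate 1 alone. The letters were chosen after the sequence was read. They occurred in 2 of 80 locus peaks and 1.21% of all peaks in replicate 1, and in 2 of 47 and 1.62% in replicate 2. The other such locus peak was the one over the Trbv23 start. Footprints covered 53 and 34 of 260 bases of the enhancer-side sequence, 25 in both.

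A second dense peak of the enhancer side lay before it. The peak at chr6:41553481-41553660 had densities of 4.81 in replicate 1 and 4.29 in replicate 2. The third shared peak, at chr6:41550261-41550520, had 1.26 and 0.738. Peaks found in replicate 1 alone numbered 4, with densities of 0.719 to 1.26. The dense sites of the enhancer side were thus present in both animals, and those found in 1 animal were less dense.

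Trbv31 had the largest share of listed bases of any stretch in both animals. With 1 kb on either side it had 58.5% of bases listed in replicate 1 and 42.3% in replicate 2, with 2 peaks in each and 11 and 10 footprints. The peak at its start had densities of 10.2 and 13.5, and its middle lay 38 and 28 bp before the segment. The peak at its 3′ end, chr6:41557561-41557780, had 5.19 and 4.84. Against the enhancer-side peak of the same library the start peak was 0.973 times as dense in replicate 1 and 0.648 times in replicate 2. Among peaks within 1 kb of the 22 V gene starts, the Trbv31 start peak was the densest in replicate 2. In replicate 1 it was the third, after peaks centred 471 bp before Trbv12-2 and 480 bp before Trbv12-1. The separate peaks over the Trbv12-2 and Trbv12-1 starts had 1.78 and 1.52 in replicate 1, and 1.19 and 1.01 in replicate 2. Footprints covered 63 and 60 of 220 bases of the Trbv31 start peak, 53 in both. Of the words searched there, the ETS core AGGAAG and the E-boxes CAGCTG and CACCTG occur, and none lay in footprints of both animals. AGGAAG or CGGAAG occurred in 37.5% of locus peaks and 39.8% of all peaks in replicate 1, and in 46.8% and 45.6% in replicate 2.

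The flank downstream of Trbv31 held 5 peaks in each animal, all of them overlapping. A peak at chr6:41559481-41559680, centred 1128 bp before the Trbv31 start in replicate 1, had 4.66 and 3.11. The peak at the start of Ephb6, the gene of a kinase-inactive Eph receptor, had 11.3 and 7.95. A further peak centred 962 bp before it had 8.09 and 2.50. These sites lie outside the receptor segments, and the Ephb6 start peak was 1.08 times as dense as the enhancer-side peak in replicate 1 and 0.381 times in replicate 2.

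Of 13 motifs searched, 8 had a share of locus peaks within 1.5 times that of all peaks in replicate 1, with 3 higher and 2 lower. In replicate 2 the counts were 5 within, 6 higher and 2 lower. TATAAA, AGGATGTGG and the recombination heptamer were higher by that measure in both animals, on few peaks each. TATAAA and AGGATGTGG were chosen by reading sequences of these same peaks, so their higher shares are no independent result. AGGATGTGG was in 2 peaks of each library, and 1 of them is the site it was read from. The RUNX letters TGTGGT or TGCGGT occurred in 23.8% of locus peaks and 23% of all peaks in replicate 1, and in 19.1% and 23.8% in replicate 2. The E-box CACCTG occurred in 23.8% and 23.9% in replicate 1, and in 19.1% and 26.3% in replicate 2. The E-box CAGCTG, bound like CACCTG by E proteins, occurred in 15% and 16.9%, and in 12.8% and 19.6%. The TCF and LEF letters CTTTGA occurred in 12.5% and 13.1%, and in 17% and 12.8%. TGACGTCA, the cyclic AMP response element, occurred in 0 of 80 and 0 of 47 locus peaks, and in 0.695% and 1.05% of all peaks. The recombination heptamer CACAGTG occurred in 15% of locus peaks and 6.6% of all peaks in replicate 1, and in 10.6% and 6.53% in replicate 2. These matches were not all at segment ends, since peaks on the enhancer side in replicate 1 were among them. The CTCF consensus with up to 1 mismatch occurred in 12.5% and 20.2%, and in 12.8% and 13.4%. Each percentage is over the 200 bp around the middle of a peak.

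The genes whose proteins act on the locus were mostly accessible at their starts. Of 15 recombination genes, among them Rag1 and Rag2, 14 had a start peak in both animals, and Xrcc6 was the exception in both. Of 12 genes of factors known to bind the locus, 12 had a start peak in replicate 1 and 11 in replicate 2, where Ets1 had none. Of 10 T-lineage markers all had a start peak in both animals, the cells for which the thymus is known. Of 4 B-lineage markers 1 and 0 had a start peak, of 4 erythroid markers 1 and 1, and of 3 liver markers 0 and 0. Of 4 thymic epithelial markers 2 had a start peak in replicate 1 and 1 in replicate 2. The shares over all protein-coding starts were 61.7% and 55.1%.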

How the data were processed

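DNase-seq was run on thymus from 2 animals, 1 library each; replicate numbers are those of the labels. Positions are on mm10, per the labels. Notes deposited beside the files say that each library's own filtered alignment was used, so nothing was pooled. The aligner, peak caller and footprint caller were not given in the sources used here. The authors deposited 2 peak lists per library, and the longer was used. Each peak carries a signal density of the authors, whose scaling is not stated, so it was compared mainly within a library. False discovery rates (q-values) were deposited for runs of bases, and values of 0.05 or more are not listed. The deposited footprints carry the same number in every line, so their positions alone were used. Read depth is unknown, and intervals on shares are exact binomial (Clopper-Pearson) 95% intervals that cover counting error only.

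Segments and genes came from GENCODE M21 on GRCm38, the build of mm10, and sequence from the RefSeq copy of that assembly. The interval was cut into 10 stretches at the annotated segments, and a peak belonged to the stretch of its middle. A start or 3′-end peak overlapped the window around that position, and overlap between animals needed 1 bp. The copy number of every 31-base word was counted over the whole genome on both strands. Motifs were matched as letters on both strands. Python 3.11.15, numpy 2.4.6, scipy 1.17.1, pandas 2.3.3, numba 0.67.0 and matplotlib 3.10.9 were used. Overlaps were tested on simulated data against bedtools 2.31.1 with 0 mismatches, as were word copies and planted motifs. No hypothesis test was run, because the 2 libraries form 1 group. Values are given for both animals, with the mean and SD where stated.

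Every peak of the D-J-C clusters, enhancer side and Trbv31 was read. Elsewhere the 3 densest peaks of each stretch by mean density, and every V segment and trypsinogen gene with a start peak, were named. Members, lists and motifs were chosen with earlier results of these data known. The 100 bp windows at 3′ ends, the listing of heptamers and the AGGATGTGG, CTCF core and TATAAA motifs were chosen after values had been seen. Alternatives tried were the shorter lists, the longer list reduced to the other library's length, other overlaps and windows, a stricter false discovery rate, footprints wholly inside peaks, and leaving out each animal.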

Additional observations from a re-analysis of the deposited data

How the results depend on the processing

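Alternatives were run for peaks, listed bases and footprints per stretch, for partner shares and for V start peaks. Densities, heptamers, motifs and ratios had none. The order of the clusters by peaks turned with the animal left out, with 4 in D1-J1-C1 and 7 in D2-J2-C2 without replicate 1, and 11 and 8 without replicate 2. With the shorter lists the mean number of peaks was 18.5 in the V array, against 28.5 in the longer lists, 2 in the second trypsinogen stretch, against 5, and 4 in the D1-J1-C1 cluster, against 7.5. The share of replicate 1 locus peaks with a partner was then 44.1%, against 57.5% in the longer lists. With replicate 1 reduced to its densest peaks, as many as replicate 2 has, that share was 77.6%. The 46.9% of all peaks holds for the longer lists. Shares of all peaks are not given for the alternatives, so these locus shares have no like background. For replicate 2 the share was 80.9% with that reduced list and 85.1% when overlap had to cover 50% of both peaks, against 97.9%. The reduced list gave a mean of 2.5 peaks in the second trypsinogen stretch, against 5, and of 5 in the D1-J1-C1 cluster, against 7.5. In the D2-J2-C2 cluster the mean stayed at 7.5. At a false discovery rate of at most 0.001 the mean share of bases was 1.74% in the V array, 0.132% in the second trypsinogen stretch and 4.09% in the downstream flank, against 3.19%, 0.420% and 5.19%. Footprints wholly inside peaks numbered 12.5 on the enhancer side and 15 in the downstream flank, against 19 and 23.5. With 1 animal left out, peaks ranged over 3 to 7 in the second trypsinogen stretch, 4 to 11 in the D1-J1-C1 cluster and 3 to 7 on the enhancer side, and footprints over 4 to 11 in the second trypsinogen stretch and 11 to 27 in the D1-J1-C1 cluster. V genes with a start peak numbered 14 and 12 within 500 bp, 16 and 14 within 2 kb, and 13 and 10 in the shorter lists, in replicates 1 and 2. No paired analysis was possible because the 2 animals form 1 group. Unstated read depth, repeated sequence and mapping of CAST alleles to the reference limit what an empty stretch shows.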

Other observations

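Density ratios between the animals varied along the locus, although the scaling of the density is not stated. Over the 46 overlapping pairs the ratio of replicate 1 to replicate 2 had a median of 1.6 and ran from 0.504 to 7.63. Over the 59843 such pairs of the genome the median was 1.58, with 5% of pairs below 0.754 and 5% above 6.62. The locus median thus lay close to that of the genome.

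The pairs at the enhancer-side peak and at the Trbv31 start had ratios below 1, while those with a match to the CTCF consensus were among the highest. The median was 1.12 over 3 enhancer-side pairs, 0.915 over 2 at Trbv31, 2.14 over 7 in the D2-J2-C2 cluster and 1.54 over 21 in the V array. The 6 pairs whose sequence matched the CTCF consensus with up to 1 mismatch had a median of 4.14 and a lowest ratio of 3.24, and the other 40 had a median of 1.5 and a highest ratio of 5.94. The Trbv12-2 peak, which holds the CTCF core but no such match, was among the 40 with a ratio of 3.01. This split was chosen after the values were seen. What sets these ratios was not tested.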
